A study of Mus musculus with 4 samples.

Results

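The mouse genes for histone and protein methyltransferases and demethylases were examined in RNA co-precipitated with TSSK2, a testis-specific serine kinase. Members were chosen by gene symbol, with earlier results of these data known. They are the genes whose GENCODE symbol is Kmt, Kdm, Setd, Prmt, Nsd or Suv39h with a number, together with Setdb1, Setdb2, Ehmt1, Ehmt2, Ezh1, Ezh2, Dot1l, Ash1l, Smyd1 to Smyd5 and Carm1. In all, 61 of the 21936 genes of the count table met this rule. They comprise 34 genes for SET domain proteins and DOT1L, most of which methylate lysine, 9 genes for protein arginine methyltransferases and 18 genes for demethylases of the LSD and JmjC families. The symbols thus reach beyond lysine, since the Prmt genes and Carm1 encode arginine methyltransferases and Setd3 encodes a histidine methyltransferase.

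Methylation of lysine and arginine in histone tails is written by methyltransferases, most of which carry a SET domain or belong to the PRMT family, and is removed by demethylases that use either an amine oxidase (LSD) or a JmjC domain. Methylation of H3K4 and H3K36 is typical of transcribed chromatin, whereas methylation of H3K9 and H3K27 is typical of silent chromatin. In the testis these enzymes act during meiosis and when round spermatids prepare their chromatin for the exchange of histones for protamines. Because transcription stops as the spermatid elongates, many spermatid mRNAs are stored in ribonucleoprotein granules before they are translated. The chromatoid body is such a granule, and TSSK2 is found in its late form.

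Germ cells from testes of adult C57BL/6 mice were fixed with paraformaldehyde and sonicated. Immunoprecipitation from the pellet fraction was done either with an anti-TSSK2 antibody (TSSK2-IP, n = 2 libraries) or with mouse IgG (control IgG-IP, n = 2 libraries). No genotype or drug separated the groups, which differed only in the antibody. Neither the labels nor the methods say whether the replicates came from separate animals, so the p-values measure the spread between these libraries, which may be technical. The comparison asks which of these mRNAs were recovered more, or less, with TSSK2 than with IgG, and a value in an immunoprecipitate is a recovered amount of RNA, not its level in the cell.

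The libraries held 4158034 and 4491749 counts in TSSK2-IP and 9858941 and 3938922 counts in control IgG-IP. Levels are given as counts per 1000000 counts of a library (CPM), with library sizes scaled by the TMM method. Control IgG-IP replicate 1 stood apart. Over the members, the SD of the log2 difference between the control libraries was 0.90, against 0.38 between the TSSK2-IP libraries, and results are therefore given with and without each control. The CPM summed over 12 spermatid markers, from Prm1 to Akap4, was 7851 and 7354 in TSSK2-IP and 23322 and 10194 in control IgG-IP. Among these 12, 5 log2 fold changes were positive and 7 negative. The sum over 10 spermatocyte markers was 2442 and 2513 against 3830 and 2247. Over 10 Sertoli cell markers it was 70.3 and 58.4 against 25.3 and 53.8, and 7 of the 8 tested were positive. Over 8 Leydig cell markers it was 61.4 and 58.6 against 23.2 and 48.9, and 7 of the 7 tested were positive. No marker of these lists was at 0 in all libraries. These sums move with the groups and with the control library, and their part in the members' values was not tested.

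Every member had counts in every library, from 6 to 6320, and 60 passed the filter on low counts. The exception was Prmt2, a nuclear arginine methyltransferase, with 6 and 11 counts in TSSK2-IP and 14 and 7 in control IgG-IP. None of the 60 was called higher or lower in TSSK2-IP, where a call required a fold of 2 or more and, in edgeR's quasi-likelihood test, a p of 0.05 or less once adjusted after Benjamini and Hochberg over 14722 genes. Of all genes tested, 102 (0.693%) were called higher and 0 (0%) lower. DESeq2 also called 0 members, where it called 1.03% of all genes higher and 0.0475% lower. The smallest adjusted p of a member was 0.177, for Kdm4b. At an unadjusted p under 0.05, 5 members were higher (8.33%, against 8.34% of all genes) and 3 lower (5%, against 4.89%), so the members passed this threshold at the rate of the table as a whole. With DESeq2, these counts were 3 higher and 6 lower (5% and 10%, against 5.43% and 9.19% of all genes).

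The log2 fold changes of the members, TSSK2-IP over control IgG-IP, were split about evenly, with 32 positive and 28 negative values and a median of 0.04. Over all genes tested the median was -0.02 and 49.2% of the values were positive. In 17 members both TSSK2-IP libraries lay above both controls, which was 28.3% of the members tested and 27.3% of all genes. In 10 members both lay below both controls (16.7%, against 21.6% of all genes), and in the remaining 33 the groups overlapped. The standard errors of the log2 fold changes ran from 0.39 to 0.81. Fewer cells of a type, less of an mRNA per cell and a lower recovery cannot be told apart in such bulk samples. Before scaling, the members' share of all counts was 0.613% and 0.578% in TSSK2-IP and 0.461% and 0.503% in control IgG-IP. After TMM scaling, their summed CPM was 5280 and 4942 in TSSK2-IP and 7084 and 4553 in control IgG-IP. The TMM factors were 1.17 and 1.18 in TSSK2-IP and 0.652 and 1.12 in control IgG-IP. Control IgG-IP replicate 1 thus had the lowest share but the highest scaled sum.

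**Figure D1:**
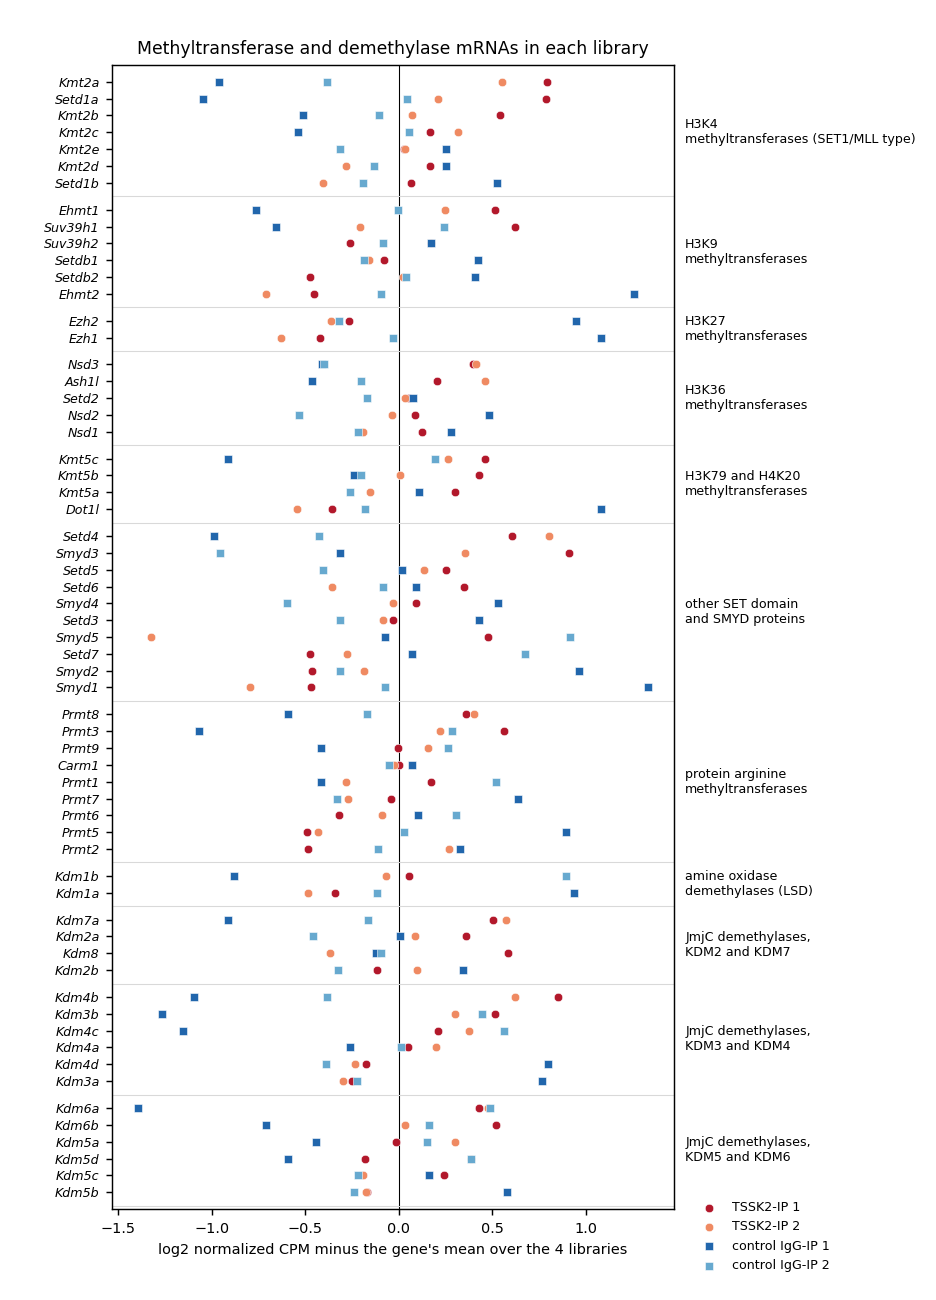
Level of each of the 61 mRNAs in each library, as log2 normalized CPM minus the mean of that gene over the 4 libraries (x axis), with genes grouped by role and ordered by fold change within a role (Prmt2, not tested, last in its role). Circles are the TSSK2-IP libraries and squares the control IgG-IP libraries. The SD of the log2 difference over the members tested was 0.38 between the circles and 0.90 between the squares, and Smyd5 is the gene whose circles lie more than 2-fold apart.

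Levels differed widely among the members. Per kilobase of annotated exon, the mean CPM over the 4 libraries ran from 0.290 for Kdm5d, the H3K4 demethylase gene of the Y chromosome, to 59.8 for Dot1l, the H3K79 methyltransferase gene. The median of the members was 4.36, close to the 3.92 of all genes tested. The means of Ehmt2 (55.3), which encodes the H3K9 methyltransferase G9a, Kdm3a (47.8), which encodes an H3K9 demethylase known for its role in switching on protamine genes, and Kdm4d (45.1) and Kdm5b (30.9), encoding demethylases of H3K9 and H3K4, came next. Control IgG-IP replicate 2 alone gave the same order, with 47.3 for Dot1l, 44.4 for Ehmt2, 38.9 for Kdm3a, 32.5 for Kdm4d and 25.5 for Kdm5b. In control IgG-IP replicate 1, Dot1l and Ehmt2 were level at 113, and the TSSK2-IP libraries differed from this order. In the TSSK2-IP libraries the level per kilobase was 41.9 and 36.7 for Dot1l, 38.1 and 36.9 for Kdm3a, 37.8 and 36.2 for Kdm4d and 34.6 and 29.0 for Ehmt2, so that Ehmt2 lay below Kdm3a and Kdm4d in both and Dot1l did not lie above Kdm3a in replicate 2. All 5 of these mRNAs had a negative log2 fold change, between -0.40 for Kdm5b and -1.31 for Ehmt2, and each was higher in control IgG-IP replicate 1 than in any other library.

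Among the role groups, the genes of the SET1/MLL type, the family of H3K4 methyltransferases, had the most members above both controls, 4 of 7. Of all genes tested, 27.3% lay above both, and a group of 7 genes is too small to be set against that share. The median log2 fold change of the 7 was 0.46, with 5 positive. Kmt2a, which encodes MLL1 and lies on chromosome 9 (GRCm38, 44803355 to 44881296), had 45.2 and 38.2 CPM in TSSK2-IP and 13.4 and 20 CPM in control IgG-IP. Both TSSK2-IP libraries were thus above both controls. The log2 fold change was 1.32 ± 0.41 (SE), with an unadjusted p = 0.00604 and an adjusted p = 0.218 in edgeR's quasi-likelihood test. Kmt2b, which encodes the closely related MLL2, had 164 and 119 CPM in TSSK2-IP against 79.1 and 105 CPM (log2 fold change 0.62). Kmt2c, for a methyltransferase of enhancers, had 93.5 and 104 CPM against 57.3 and 86.4 CPM (log2 fold change 0.46).

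Setd1a, the gene of a methyltransferase that acts broadly at promoters, lies on chromosome 7 (127776670 to 127800122). It had 40.0 and 26.8 CPM in TSSK2-IP and 11.2 and 23.9 CPM in control IgG-IP, without overlap between the groups (log2 fold change 0.94 ± 0.45). Of its exon bases, 51.8% lie on the same strand within Gm49388, which is also in the table, so its value is uncertain. The other members of the group overlapped between TSSK2-IP and control. Kmt2d, the paralogue of Kmt2c, had a log2 fold change of -0.11, Kmt2e one of 0.03 and Setd1b, the paralogue of Setd1a, one of -0.36.

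The H3K9 methyltransferases did not share a direction. Ehmt1 and Ehmt2 encode GLP and G9a, which act as a heterodimer and are needed in male germ cells. Ehmt1 had 15.1 and 12.6 CPM in TSSK2-IP and 6.24 and 10.6 CPM in control IgG-IP, and Ehmt2, on chromosome 17 (34898469 to 34914052), had 190 and 159 CPM against 622 and 244 CPM. Neither mRNA overlapped between the groups, and their log2 fold changes were of opposite sign, 0.73 ± 0.47 (unadjusted p = 0.143) and -1.31 ± 0.63 (unadjusted p = 0.0574 in edgeR's quasi-likelihood test).

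Within a library, which removes any effect of scaling, the level of Ehmt2 per exonic kilobase was 18.6 and 18.8 times that of Ehmt1 in TSSK2-IP and 147 and 34.1 times in control IgG-IP. The ratio was nearly equal in both TSSK2-IP libraries and differed more than 4-fold between the controls. This ratio and those given for other pairs were chosen after their values were seen and are descriptive.

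The other H3K9 methyltransferases lay closer to 0. Suv39h1 and Suv39h2, for the enzymes of pericentric heterochromatin, had log2 fold changes of 0.41 and -0.08. Setdb1, for the partner of KAP1 in silencing of retroelements, had -0.27. Setdb2 had 16.6 and 23.4 CPM in TSSK2-IP and 30.6 and 23.7 CPM in control IgG-IP (log2 fold change -0.44), and here both TSSK2-IP libraries were below both controls by a narrow margin.

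Both H3K27 methyltransferases of the Polycomb repressive complex PRC2 had negative values. Ezh1, on chromosome 11 (101191115 to 101226463), had 13.9 and 12.0 CPM in TSSK2-IP and 39.3 and 18.2 CPM in control IgG-IP, with both TSSK2-IP libraries below both controls. Its log2 fold change was -1.16 ± 0.46, with an unadjusted p = 0.0235 and an adjusted p = 0.316 in edgeR's quasi-likelihood test. Ezh2 had 78.8 and 73.8 CPM against 183 and 76.1 CPM, and the groups overlapped (log2 fold change -0.76 ± 0.50). For Ezh2, only control IgG-IP replicate 1 stood above TSSK2-IP, and without that library the log2 fold change was 0.061.

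The H3K36 methyltransferases had values near or above 0. Nsd3, whose protein dimethylates H3K36, had 173 and 175 CPM in TSSK2-IP and 98.9 and 99.5 CPM in control IgG-IP. Each pair of replicates was nearly equal and the groups were well apart (log2 fold change 0.81 ± 0.47, unadjusted p = 0.104 in edgeR's quasi-likelihood test). Ash1l, a Trithorax group gene, had 227 and 272 CPM against 144 and 172 CPM, also without overlap (log2 fold change 0.66). Setd2, for the enzyme that trimethylates H3K36 and is required for spermiogenesis, had 272 and 268 CPM against 276 and 233 CPM, so its groups overlapped (log2 fold change 0.09). For Nsd1 and Nsd2 the log2 fold changes were -0.08 and -0.04.

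Dot1l, on chromosome 10 (80755206 to 80795461), encodes the H3K79 methyltransferase, whose mark is abundant in elongating spermatids. It had 365 and 320 CPM in TSSK2-IP and 986 and 412 CPM in control IgG-IP, with both TSSK2-IP libraries below both controls (log2 fold change -1.03 ± 0.70, unadjusted p = 0.164 in edgeR's quasi-likelihood test). The H4K20 methyltransferase genes pointed the other way. Kmt5b had 45.8 and 34.3 CPM against 28.9 and 29.6 CPM, and Kmt5c 16.6 and 14.5 CPM against 6.40 and 13.8 CPM, both without overlap (log2 fold changes 0.45 and 0.63). For Kmt5a, the monomethylase of H4K20, the groups overlapped (log2 fold change 0.15).

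Of the 10 other SET domain and SMYD genes, 4 had a positive value. Setd4, on chromosome 16 (93583457 to 93604063), encodes a little studied SET protein. It had 14.1 and 16.2 CPM in TSSK2-IP and 4.68 and 6.89 CPM in control IgG-IP, and its TSSK2-IP values were both more than 2-fold above either control value. The log2 fold change was 1.40 ± 0.48, with an unadjusted p = 0.0108 and an adjusted p = 0.263 in edgeR's quasi-likelihood test. Kdm4b was the other member with such a separation. These 2 made up 3.33% of the members tested, and 4.01% of all genes met the same condition.

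Smyd3, on chromosome 1 (178951960 to 179518041), encodes a mainly cytoplasmic lysine methyltransferase. It had 16.8 and 11.4 CPM in TSSK2-IP and 7.18 and 4.60 CPM in control IgG-IP, without overlap (log2 fold change 1.24 ± 0.49, unadjusted p = 0.0239 in edgeR's quasi-likelihood test). Smyd1 encodes a methyltransferase best known from muscle and lies on chromosome 6 (71213940 to 71322233). It had 7.88 and 6.28 CPM in TSSK2-IP and 27.5 and 10.3 CPM in control IgG-IP, again without overlap but in the opposite direction. At -1.43 ± 0.52 it had the lowest log2 fold change of all members (unadjusted p = 0.0152). Smyd2 had 6.43 and 7.80 CPM against 17.3 and 7.12 CPM, so that the groups overlapped (log2 fold change -0.79), and without control IgG-IP replicate 1 its value was 0.057.

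The remaining genes of this group had lower levels or smaller differences. Smyd5 was the one member whose TSSK2-IP libraries differed at least 2-fold, with 6.63 and 1.90 CPM. Among all genes tested, 6.7% did so. Setd7, for a methyltransferase of H3K4 and of other proteins, had 3.32 and 3.81 CPM in TSSK2-IP and 4.84 and 7.35 CPM in control IgG-IP, both libraries below both controls (log2 fold change -0.76). Setd5 had 204 and 188 CPM against 173 and 129 CPM, both above (log2 fold change 0.37). Setd3, Setd6 and Smyd4 had log2 fold changes of -0.16, 0.03 and -0.06.

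Among the arginine methyltransferases, 3 of the 8 genes tested had a positive value. Prmt5, on chromosome 14 (54507187 to 54517525), encodes the main enzyme of symmetric arginine dimethylation, which also modifies PIWI proteins in germ cells. It had 19.9 and 20.7 CPM in TSSK2-IP and 52.0 and 28.5 CPM in control IgG-IP. Both TSSK2-IP libraries were below both controls, with a log2 fold change of -0.99 ± 0.42, an unadjusted p = 0.0347 and an adjusted p = 0.347 in edgeR's quasi-likelihood test.

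Carm1, for a coactivator that dimethylates arginine asymmetrically, had 108 and 106 CPM in TSSK2-IP and 113 and 103 CPM in control IgG-IP, and its log2 fold change was -0.02. Of its exon bases, 21.1% are opposite Yipf2. Prmt1, which carries most asymmetric dimethylation in other tissues, had only 7.05 and 5.14 CPM against 4.68 and 8.96 CPM (log2 fold change -0.15). Prmt8 had 3.32 and 3.43 CPM against 1.72 and 2.30 CPM, without overlap, but its standard error was the largest of all members (log2 fold change 0.75 ± 0.81). The values for Prmt3, Prmt6, Prmt7 and Prmt9 were 0.66, -0.40, -0.39 and 0.13.

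The demethylase genes had positive values in 12 of 18 cases, with a median of 0.26. The negative values were those of both LSD genes, of Kdm3a, Kdm4d and Kdm5b, and, close to 0, of Kdm2b. Without control IgG-IP replicate 1 the median was 0.15 and without replicate 2 it was 0.42. Kdm1a, for LSD1, which acts on H3K4 and is needed for spermatogenesis, had 99.3 and 89.8 CPM in TSSK2-IP and 240 and 116 CPM in control IgG-IP, without overlap (log2 fold change -0.91 ± 0.51, unadjusted p = 0.0936 in edgeR's quasi-likelihood test). Its log2 fold change was -0.24 when control IgG-IP replicate 1 was left out and -1.42 when replicate 2 was. Kdm1b, the second LSD gene, had 10.2 and 9.32 CPM against 5.30 and 18.2 CPM, so that both TSSK2-IP libraries lay between the controls (log2 fold change -0.25).

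Kdm4b, on chromosome 17 (56326062 to 56402870), encodes a demethylase of trimethylated H3K9 and had the highest log2 fold change of all members. It had 48.7 and 41.5 CPM in TSSK2-IP and 12.6 and 20.7 CPM in control IgG-IP, and every TSSK2-IP value was at least 2-fold above every control value. The log2 fold change was 1.44 ± 0.42, with an unadjusted p = 0.0039 and an adjusted p = 0.177 in edgeR's quasi-likelihood test. Its paralogues did not share this value. Kdm4a had 39.4 and 43.8 CPM against 31.8 and 38.4 CPM (log2 fold change 0.25), and Kdm4c 12.0 and 13.5 CPM against 4.68 and 15.4 CPM (0.37).

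Kdm4d, the paralogue that is mainly expressed in testis, had 108 and 104 CPM in TSSK2-IP and 212 and 93.1 CPM in control IgG-IP, and its groups overlapped (log2 fold change -0.53). Per exonic kilobase, Kdm4d was at 3.79 and 4.27 times the level of Kdm4b in TSSK2-IP and at 28.7 and 7.70 times in control IgG-IP. Kdm3a had 313 and 304 CPM against 635 and 320 CPM (log2 fold change -0.63), and its paralogue Kdm3b 70.3 and 60.7 CPM against 20.4 and 67.1 CPM (log2 fold change 0.59). For these genes control IgG-IP replicate 2 resembled TSSK2-IP. The ratio of Kdm3a to Kdm3b was 7.64 and 8.57 in TSSK2-IP, 8.18 in control IgG-IP replicate 2 and 53.2 in replicate 1.

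Kdm7a, on chromosome 6 (39136623 to 39206789), encodes a PHD finger demethylase of H3K9 and H3K27. It had 97.6 and 103 CPM in TSSK2-IP and 36.5 and 61.3 CPM in control IgG-IP, without overlap (log2 fold change 1.03 ± 0.44, unadjusted p = 0.0326 in edgeR's quasi-likelihood test). Kdm2a, for an H3K36 demethylase that binds CpG islands, had 192 and 159 CPM against 150 and 109 CPM and also did not overlap (log2 fold change 0.44). Kdm2b and Kdm8 had log2 fold changes of -0.05 and 0.29.

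In the KDM5 and KDM6 families, which remove methyl groups from H3K4 and H3K27, 5 of 6 log2 fold changes were positive, but in none of the 6 were the groups separate. Kdm6a, the X-linked H3K27 demethylase gene, had 9.95 and 10.3 CPM in TSSK2-IP and 2.81 and 10.3 CPM in control IgG-IP (log2 fold change 0.65). Its value without control IgG-IP replicate 1 was 0.02. Kdm5b had 442 and 439 CPM against 743 and 421 CPM (log2 fold change -0.40). Kdm6b, the inducible relative of Kdm6a, had a log2 fold change of 0.51, and Kdm5a, Kdm5c and Kdm5d had 0.27, 0.05 and 0.17.

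**Figure D2:**
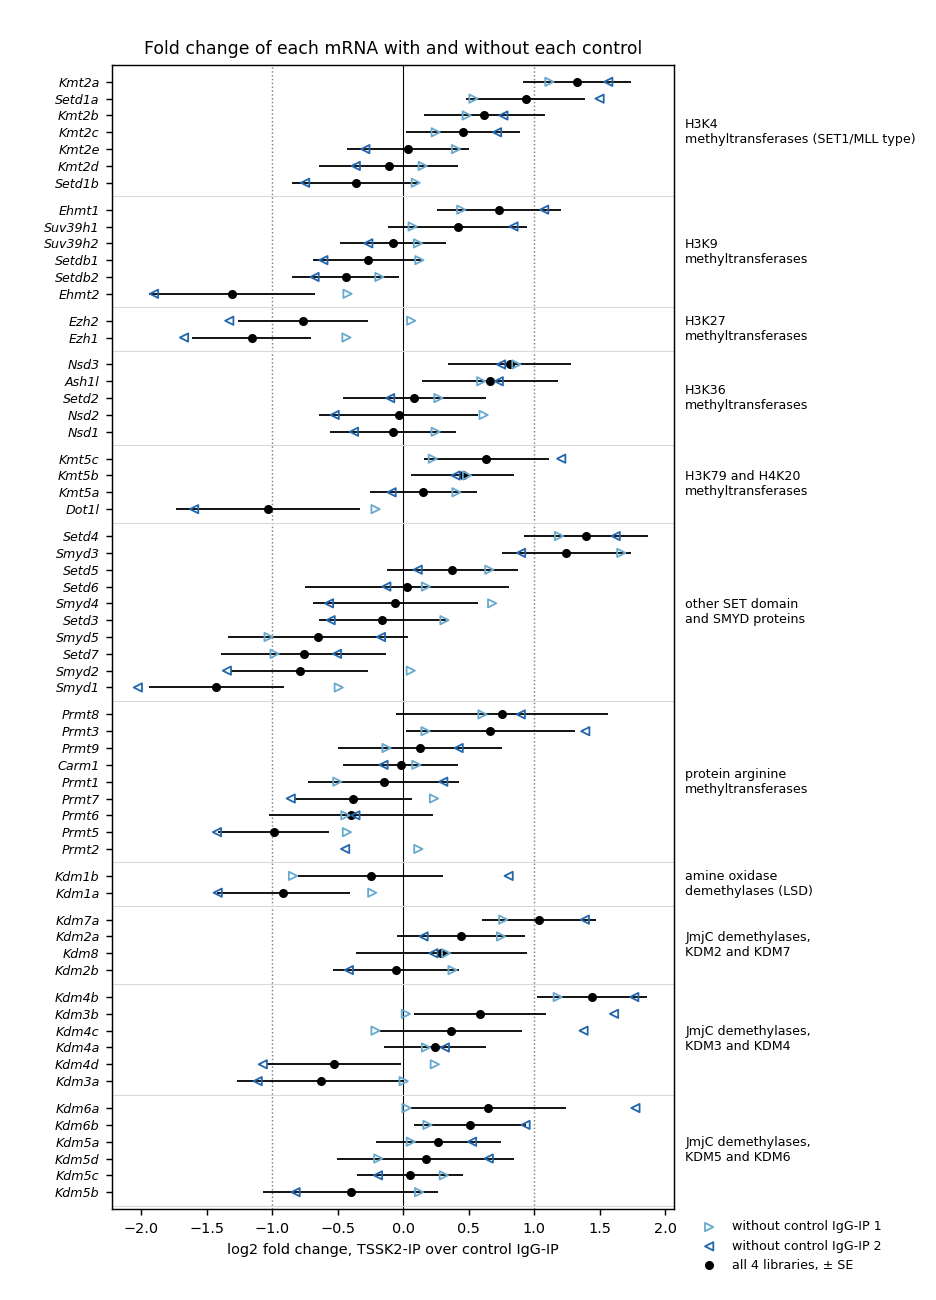
Log2 fold change of each mRNA, TSSK2-IP over control IgG-IP (x axis), grouped by role. Black points with bars are the values of edgeR's fit on all 4 libraries ± SE, open triangles are the values without control IgG-IP replicate 1 or 2, and dotted lines mark 2-fold. Kdm4b, Kmt2a and Setd4 lie beyond 2-fold in all 3 fits, whereas Smyd1 and Ehmt2 move from -2.03 and -1.90 without control IgG-IP replicate 2 to -0.49 and -0.43 without replicate 1.

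Many of these values depended on the control. The control libraries differed at least 2-fold in 17 of the 60 members tested (28.3%, against 43.6% of all genes). Of these, 10 were higher in replicate 1 and 7 in replicate 2. For 26 members (43.3%), the log2 fold change had opposite signs without the one and without the other control, as it had for 38.5% of all genes. The median log2 fold change of the 60 members was 0.17 when control IgG-IP replicate 1 was left out and -0.09 when replicate 2 was, against 0.05 and 0.14 for all genes tested.

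A log2 fold change of at least 1 without either control was found for Kdm4b (1.18 without replicate 1 and 1.76 without replicate 2), Kmt2a (1.12 and 1.56) and Setd4 (1.19 and 1.62). These 3 are 5% of the members tested, and 5.4% of all genes met the condition. Smyd3 came close, with 1.66 and 0.90, as did Kdm7a, with 0.76 and 1.39. No member was at -1 or below in both fits, which 0.693% of all genes were. Without control IgG-IP replicate 1, Smyd1 was at -0.49, Ehmt2 at -0.43, Ezh1 at -0.43, Prmt5 at -0.43 and Dot1l at -0.21. Without control IgG-IP replicate 2, they were at -2.03, -1.90, -1.67, -1.42 and -1.60. Setd1a was at 0.54 and 1.5 without the one and the other control, and Ehmt1 at 0.44 and 1.08. Smyd1, Ehmt2, Ezh1, Prmt5 and Dot1l kept their sign, but their size rested on control IgG-IP replicate 1.

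When control IgG-IP replicate 1 was left out, edgeR's quasi-likelihood test called 4 members higher (Kdm4b, Kmt2a, Setd4 and Smyd3) and 0 lower, where 5.38% and 2.56% of all genes were called. When replicate 2 was left out, 11 were called higher and 10 lower, where 17.9% and 17.4% of all genes were called. In these fits the spread comes from the TSSK2-IP pair and the single control is assumed to vary like it. Of the 61 members in the fit without replicate 1, 46 (75.4%) had a positive log2 fold change, against 49.9% of all genes, and 17 (27.9%) were higher at an unadjusted p under 0.05, against 17.4%. In the fit without replicate 2, positive values made up 47.5% of the members and 55.2% of all genes.

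**Figure D3:**
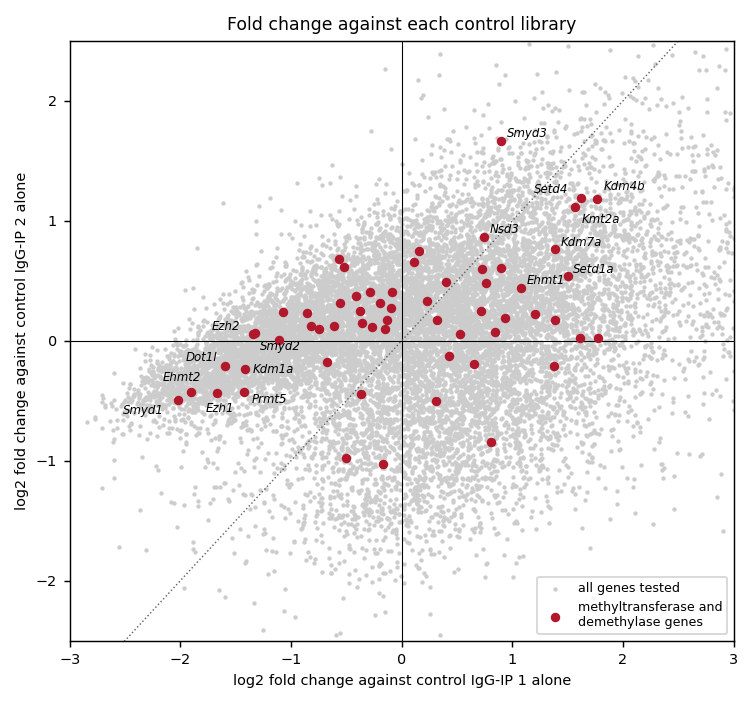
Log2 fold change of TSSK2-IP against control IgG-IP replicate 1 alone (x axis) and against replicate 2 alone (y axis). Grey points are all genes tested, red points the 60 members tested, the dotted line marks equal values, and names are given for the 16 members with the smallest p in either direction. Kdm4b, Kmt2a and Setd4 are above 1 on both axes, while Smyd1, Ehmt2, Ezh1, Dot1l and Prmt5 are below -1 on the x axis and above -0.5 on the y axis.

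The genes of proteins that form complexes with these enzymes were set beside the catalytic subunits. None of these partner genes was called, with edgeR or with DESeq2. Of the 8 PRC2 partner genes tested, 7 had a positive log2 fold change, with a median of 0.81, whereas Ezh1 and Ezh2 were negative. Without control IgG-IP replicate 1 the partners' median was 0.78, with Ezh1 at -0.43 and Ezh2 at 0.061. Leaving out replicate 2 gave 1.19, -1.67 and -1.33. Aebp2, for a DNA-binding accessory subunit, had 132 and 108 CPM in TSSK2-IP and 28.4 and 46.2 CPM in control IgG-IP (log2 fold change 1.69 ± 0.45, adjusted p = 0.134 in edgeR's quasi-likelihood test). Mtf2, for a Polycomb-like subunit that binds CpG islands, had 114 and 125 CPM against 37.6 and 62.5 CPM (log2 fold change 1.26 ± 0.45). In both genes the groups were separate, and the log2 fold changes were 1.43 and 0.99 when control IgG-IP replicate 1 was left out.

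Suz12, for a core subunit of PRC2, had a log2 fold change of 0.86, and Eed, for the subunit that reads trimethylated H3K27, had -0.46. Per exonic kilobase, Ezh2 was at 0.575 and 0.540 times the level of Suz12 in TSSK2-IP and at 2.39 and 1.02 times in control IgG-IP, so that the ratio was lower in both TSSK2-IP libraries than in either control.

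With all 4 libraries, the PRMT5 partners showed the same arrangement. All 4 had positive values, with a median of 0.61, against -0.99 for Prmt5. For Clns1a (0.19) and Riok1 (0.02), however, the groups overlapped. Without control IgG-IP replicate 1 the partners' median was 0.73 and Prmt5 was at -0.43. Leaving out replicate 2 gave 0.71 and -1.42. Wdr77, for the MEP50 subunit that PRMT5 needs for activity, had 37.3 and 36.2 CPM in TSSK2-IP and 7.49 and 18.2 CPM in control IgG-IP, without overlap (log2 fold change 1.53 ± 0.46, adjusted p = 0.208 in edgeR's quasi-likelihood test). Coprs, for a histone-binding cofactor, had 31.5 and 28.2 CPM against 10.5 and 19.1 CPM (log2 fold change 1.02). The level of Prmt5 per exonic kilobase was 0.652 and 0.702 times that of Wdr77 in TSSK2-IP and 8.49 and 1.92 times in control IgG-IP.

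Of the 11 SET1/MLL partner genes tested, 4 were positive, with a median of -0.30, beside 5 of 7 and 0.46 for the SET1/MLL genes themselves. The negative sign of the partners' median rested on control IgG-IP replicate 1. That median was 0.069 without replicate 1 and -0.71 without replicate 2, where the SET1/MLL genes had 0.40 and 0.72. Wdr82, for a subunit that links SET1 to RNA polymerase II, had 49.8 and 54.6 CPM in TSSK2-IP and 18.1 and 25.7 CPM in control IgG-IP (log2 fold change 1.25 ± 0.40, adjusted p = 0.243 in edgeR's quasi-likelihood test). Ncoa6, for a subunit of the MLL3 and MLL4 complexes, had 75.0 and 66.4 CPM against 229 and 89.6 CPM (log2 fold change -1.17). Pagr1a was at 0 in every library and was not tested. Of its exon bases, 98.7% lie on the same strand within Gm42742, which is also in the count table, so this 0 is uncertain.

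Of the 8 LSD1/CoREST partner genes, 6 were negative, as Kdm1a was, with a median of -0.21, which turned to 0.12 when control IgG-IP replicate 1 was left out and to -0.67 when replicate 2 was. Hdac1, for a deacetylase of this complex, had 84.0 and 85.6 CPM in TSSK2-IP and 299 and 116 CPM in control IgG-IP (log2 fold change -1.29), and without control IgG-IP replicate 1 its value was -0.40. Rcor3, for a CoREST scaffold protein, had 98.9 and 88.7 CPM against 241 and 91.9 CPM, so the groups overlapped (log2 fold change -0.83, and 0.085 with control IgG-IP replicate 1 left out). Among the 10 partners and readers of H3K9 methylation, 6 were positive, with a median of 0.17, which became 0.34 on leaving out control IgG-IP replicate 1 and -0.096 on leaving out replicate 2. Cbx5, for the reader HP1 alpha, had 227 and 253 CPM against 132 and 72.8 CPM (log2 fold change 1.22), and Atf7ip, for the protein that stabilizes SETDB1, had 329 and 316 CPM against 192 and 113 CPM (log2 fold change 1.08). Both lay above both controls, while Setdb1 was at -0.27. Of the 10 genes, 5 lay above both controls and 3 below both. Trim28, for KAP1, was one of those below (log2 fold change -1.11, and -0.29 with control IgG-IP replicate 1 left out).

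The rule made no use of gene structure. The overlap of Setd1a is on its own strand. Besides Carm1, members with over 20% of their exon bases opposite another annotated gene were Smyd2 (30.0%, Gm37422), Kdm3b (24.6%, Gm26538) and Prmt6 (23.4%, C130013H08Rik). Of the exon bases of the partner gene Wdr77, 28.7% lie on the same strand as Gm42890. None of these 4 other genes is in the count table. Kdm2b, Kmt2d and Setd3 share stretches of at least 150 bases and 97% identity with processed pseudogenes, and Setd4 and Setdb1 share such stretches with other genes, so their reads may be split. The members were longer than most genes, with a median gene span of 45646 bases against 25893 for all genes tested, and a median exon length of 6824 against 4519 bases. Over the 60 members, the log2 fold change had a Spearman correlation of 0.33 with the gene span and of 0.24 with the exon length. With the GC content of each gene's longest transcript the correlation was -0.06. Over all genes tested these were -0.07, -0.06 and -0.14. The points are genes of the same 4 libraries and are not independent replicates, so these values are descriptive. With span, the correlation over the members was 0.37 with control IgG-IP replicate 1 left out and 0.21 with replicate 2 left out.

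**Figure D4:**
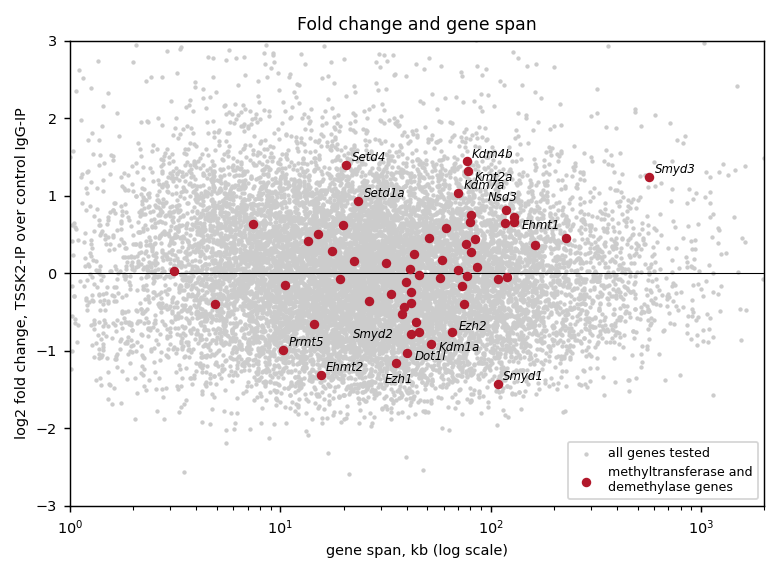
Log2 fold change, TSSK2-IP over control IgG-IP (y axis), against the gene span in kilobases on a log scale (x axis). Grey points are all genes tested and red points the 60 members tested, with names for the 16 members with the smallest p in either direction. The short genes Prmt5 and Ehmt2 lie low and the long genes Smyd3 and Nsd3 lie high. Other named genes lie the opposite way. Setd4 and Setd1a are short and lie high, and Smyd1, Ezh2 and Kdm1a exceed the members' median span and lie low. The Spearman correlation over the members was 0.33.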

How the data were processed

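RNA from 2 TSSK2-IP and 2 control IgG-IP samples was sequenced as directional libraries without rRNA removal. Per the labels, the authors used Trimmomatic 0.39, STAR 2.7.10a on GRCm38 and featureCounts 2.0.3, and they deposited raw counts per gene without normalization. Strand setting and treatment of reads with several matches are not given in the sources used here, so reads of overlapping or antisense genes may not be separable. Gene symbols came from GENCODE release 21 of the mouse annotation, which held 21817 of the 21936 identifiers.

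Counts were fitted over all 14722 genes kept by filterByExpr with edgeR 4.0.16 in R 4.3.3 (TMM, glmQLFit, glmQLFTest), with Benjamini-Hochberg adjustment. Calls required an adjusted p up to 0.05 and a 2-fold difference, a log2 fold change beyond 1 or -1. SE is the log2 fold change over the root of F. Totals ranged from 3938922 to 9858941 counts, and 1 count was worth 0.156 to 0.230 CPM. The smallest p an exact two-sided permutation test of 2 against 2 libraries can give is 0.333, and p-values therefore rest on the model. Overlaps were read from the annotation, and BLAST+ 2.17.0 was used to find sequence shared between genes.

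Full values were given for the 8 higher and 8 lower members with the smallest unadjusted p, for the most abundant member and for the 2 genes with the smallest p of each partner list. Other members were given values by role. The alternatives were DESeq2 1.42.0, its size factors, upper-quartile normalization, other filters, the replicate number as a block and leaving out each library. The members and lists were chosen with earlier results of these data known. DDX4-IP libraries were not analysed here.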

Additional observations from a re-analysis of the deposited data

How the results depend on the processing

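In the alternatives that used all 4 libraries, 0 members were called, and the 16 members with full values kept their direction. Some of them crossed the 2-fold limit. With DESeq2, Kdm7a moved from 1.03 to 0.92, Prmt5 from -0.99 to -1.13 and Kdm1a from -0.91 to -1.06. Genes called higher over the whole table numbered 102, but 20 with upper-quartile normalization, 283 without the filter on low counts, 29 with at least 10 counts in every library and 274 with the replicate number as a block. Genes called lower numbered 0, but 7 with DESeq2, 24 without the filter and 3 with the block. At an unadjusted p under 0.05, DESeq2 had 3 members higher and 6 lower, and upper-quartile normalization had 5 lower. DESeq2 and its size factors moved the median log2 fold change of all genes from -0.02 to -0.14 and that of the members from 0.044 to -0.091 with each, so relative to all genes it was 0.06 with TMM and 0.05 with both.

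Leaving out 1 library at a time gave 23 to 2755 genes called higher and 0 to 2688 lower. Among the members 0 to 11 were called higher and 0 to 10 lower, 0 to 20 were higher and 0 to 20 lower at an unadjusted p under 0.05, and the median was -0.10 to 0.17. The calls appeared only when a control was left out. Ezh2 ranged from -1.33 to 0.061 and Smyd2 from -1.35 to 0.057, with the positive values without control IgG-IP replicate 1. The cause was not tested. Same-numbered libraries deviated together with a correlation of 0.13 over 14722 genes, and although the methods describe a lysate divided between anti-TSSK2 and IgG beads, no source used here says that a number marks a shared lysate. With the replicate block 0 members were called, and 4 were higher and 2 lower at an unadjusted p under 0.05. Standard errors of 0.39 to 0.81 on the log2 scale limit what 2 libraries a group can show.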

Other observations

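Genes of the same enzyme families whose symbols the rule does not take were not called either. Of 8 further demethylase family genes, 6 had a positive log2 fold change, with a median of 0.12. Phf2, for an H3K9 demethylase with a PHD finger, had 96.2 and 86.4 CPM in TSSK2-IP and 188 and 101 CPM in control IgG-IP (log2 fold change -0.66), below both controls. Its relative Phf8 had 57.0 and 51.0 CPM against 30.4 and 51.5 CPM (log2 fold change 0.40), with overlap. Of 16 genes for PR domain proteins and other SET proteins, 11 were tested and 5 were positive, with a median of -0.04. Prdm2 had 182 and 182 CPM in TSSK2-IP and 398 and 192 CPM in control IgG-IP (log2 fold change -0.69), and Prdm11 had 16.2 and 15.8 CPM against 22.9 and 21.8 CPM (log2 fold change -0.49). Both were below both controls, and without control IgG-IP replicate 1 their values were -0.02 and -0.39.

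The CPM summed over 10 spermatogonial markers was 67.4 and 59.4 in TSSK2-IP and 53.2 and 73.3 in control IgG-IP. Over 10 markers of peritubular, vessel and immune cells it was 65.3 and 79.5 against 65.1 and 117.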
